A study of Mus musculus with 9 samples.

Results

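Trp63 and Sox2, the genes of a pair of transcription factors that direct squamous and basal epithelial programs, were described across 3 histone marks in 3 mouse pancreatic cancer cell lines. The loci were taken as fixed windows of genome build mm9 with flanks of 100 kb, chr16:25580000-25995000 for Trp63 (415 kb) and chr3:34445000-34655000 for Sox2 (210 kb). All regions in the authors' lists that overlap a window were kept. These were 35 of 185632 regions in 9 lists, 15 of them at Trp63 and 20 at Sox2. The gene span is the window without its flanks, 215 kb for Trp63 and 10 kb for Sox2.

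The lines were a female and a male line lacking Kdm6a (KDM6A-KO), named by sex and KO here, and a male line that has the gene (KDM6A-WT), named WT. Kdm6a encodes an enzyme that takes the methyl marks of H3K27me3 off histone H3. Per the labels, all 3 came from pancreas, had a mixed C57BL/6-SV129 background, were grown in F12/DMEM with EGF and received no treatment. The sources used here do not state the tumour-driving alleles, the promoter behind any Cre, the age of the mice or the number of clones per line. Each mark had 1 library per line, so no comparison has a replicate check and no p-value was computed. A female WT line was not analysed here, so sex and genotype cannot be told apart between female KO and WT. Both KO lines are compared with the same WT library. The lists hold no expression values, so the cell type of the lines was not checked against markers.

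p63, the product of Trp63, belongs to the p53 family. Its gene has an upstream promoter for the TA isoforms and an internal promoter for the ΔN isoforms, which predominate in basal cells of stratified epithelium. SOX2 is an HMG-box factor needed in embryonic stem cells and in the foregut epithelium, and its gene is a known target of Polycomb repression in differentiated cells. H3K27ac is found at active promoters and enhancers, H3K4me3 at promoters, and H3K27me3 over genes silenced by Polycomb.

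Promoters rich in CG dinucleotides are common sites of both H3K4me3 and H3K27me3, so the Sox2 promoter is shown beside the marks found there. It is 250 bases ending just before the gene's start, on the plus strand of chromosome 3, from RefSeq on GRCm38.p6, with each CG in capitals. Of the 2 genes, Sox2 was matched in the sequence table. The sequence belongs to another build than the region lists and was not placed on mm9.
Sox2 promoter: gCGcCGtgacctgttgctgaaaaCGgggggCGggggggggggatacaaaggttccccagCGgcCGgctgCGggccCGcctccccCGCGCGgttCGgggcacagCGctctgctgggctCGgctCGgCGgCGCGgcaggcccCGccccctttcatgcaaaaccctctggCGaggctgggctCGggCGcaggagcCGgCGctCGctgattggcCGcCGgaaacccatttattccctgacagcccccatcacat
The sequence holds 27 CG dinucleotides, against a median of 6 over 32851 promoters of the same length, and 8.56% of promoters hold at least as many. G and C make up 72% of its bases, against a median of 52.4%. On either strand it has 0 matches to TATAAA and 0 to a pair of CATG, the core letters of a p63 site, 6 bases apart. It also has 0 matches to ACAATG, a form of the SOX core. Other forms of the p63 and SOX cores were not searched, so a lack of p63 or SOX sites is not shown. TATAAA, the CATG pair and ACAATG occur in 12.4%, 0.490% and 10.7% of all promoters.

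The windows carried different marks. At Trp63, all 15 regions were H3K27ac, 10 in female KO, against 3 in male KO and 2 in WT. No H3K4me3 and no H3K27me3 region was listed there in any line. At Sox2, 19 regions were H3K27me3, 5 in female KO, against 8 in male KO and 6 in WT, and 1 was an H3K4me3 region of male KO. No H3K27ac region was listed at Sox2 in any line. A list holds only regions past the caller's threshold, so signal below it is not seen.

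**Figure D1:**
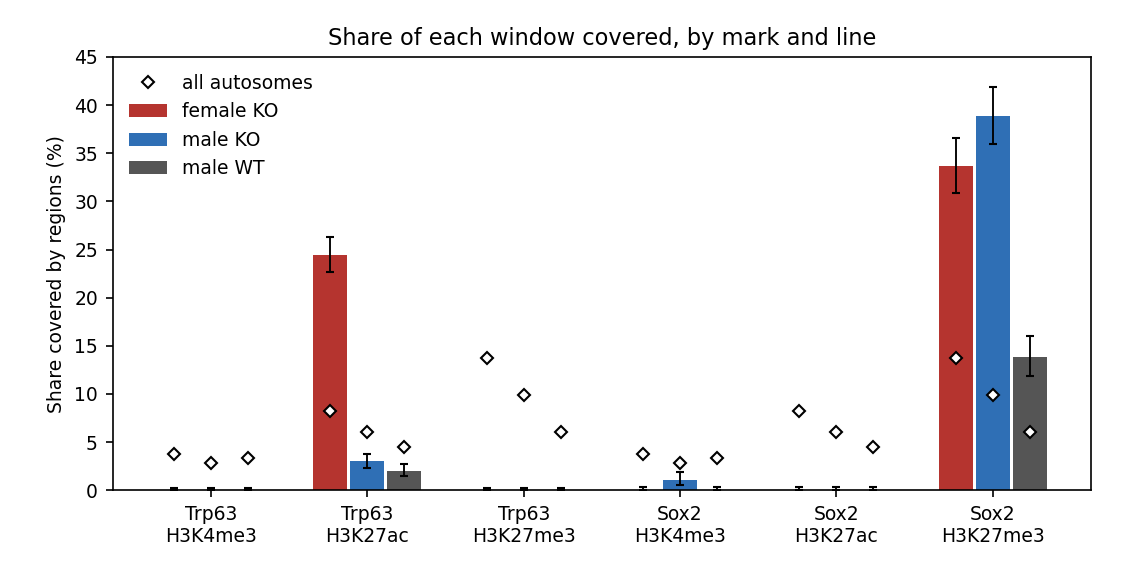
Share of each window covered by regions (percent, vertical axis) for each locus and mark, with bars for female KO, male KO and WT. Error bars are 95% Wilson intervals over 200 bp bins, and diamonds give the share of all autosomes covered. At Trp63 the female KO H3K27ac bar stands at 24.4%, above the autosomal 8.23%, while male KO and WT lie at 2.99% and 2.02%. At Sox2 the H3K27me3 bars stand at 33.7%, 38.9% and 13.8%, each above its diamond.

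H3K27ac covered 101.4 kb of the Trp63 window in female KO, 12.4 kb in male KO and 8.4 kb in WT. These lengths are 24.4% (22.6 to 26.3%), 2.99% (2.34 to 3.81%) and 2.02% (1.5 to 2.72%) of the window. The intervals treat 200 bp bins as independent, which neighbouring bins are not, and cover no variation between cultures. The female KO share was above the 8.23% of autosomes that the same list covered. The male KO and WT shares were below their autosomal shares of 6.03% and 4.52%. Among 5787 autosomal tiles of the same length, 89.2% had less H3K27ac cover in female KO than the Trp63 window, 53.7% in male KO and 55.1% in WT. Female KO exceeded WT by 22.4 percentage points (20.5 to 24.4), and male KO exceeded WT by 0.964 points (0.00817 to 1.94). The order female KO, male KO, WT was met by 34.0% of tiles (1969 of 5787). It is also the order of the autosomal shares, so the order itself is not particular to Trp63.

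**Figure D2:**
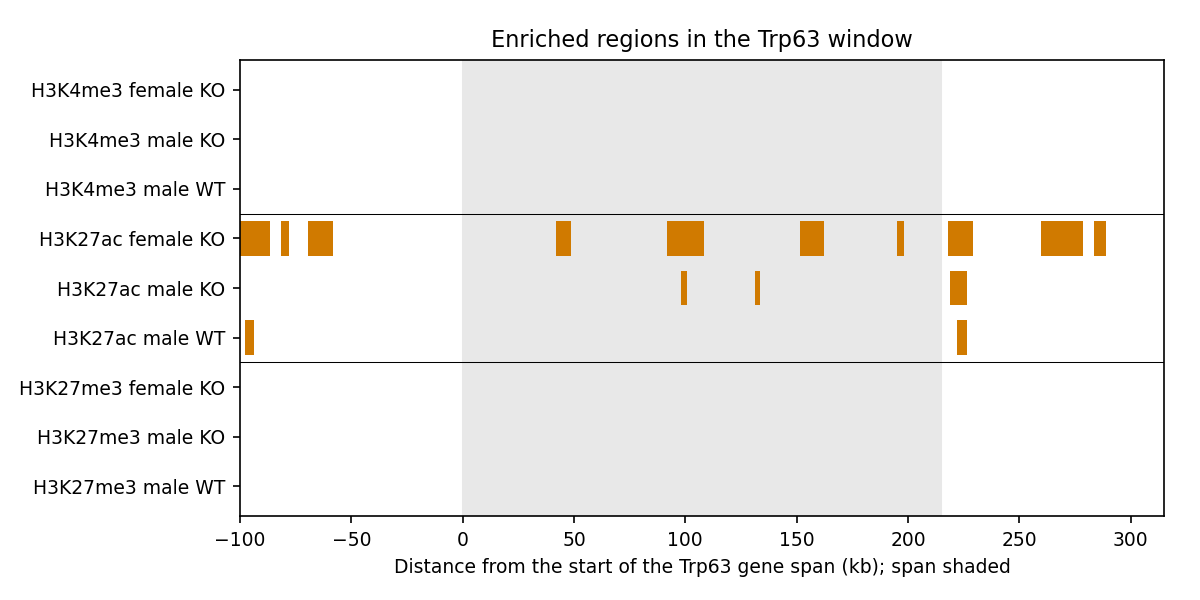
Map of the Trp63 window. The horizontal axis gives the distance in kb from the start of the gene span, which is shaded, and each row is 1 library, with bars for its regions. Only H3K27ac rows hold bars. Female KO has 4 regions inside the span, male KO has 2, and WT has none.

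Inside the Trp63 gene span, H3K27ac covered 37.4 kb in female KO, 4.6 kb in male KO and 0 kb in WT. Female KO had 4 regions there. The widest, chr16:25771801-25788400, held 505 reads over 16.6 kb and began 91.8 kb into the span. The other 3 were chr16:25721801-25728600 with 199 reads, chr16:25831401-25842200 with 300 reads and chr16:25875001-25878200 with 101 reads. The 2 regions of male KO in the span were narrower. One, chr16:25778201-25780800, held 126 reads over 2.6 kb and lay within the widest region of female KO. The other, chr16:25811401-25813400, had 44 reads over 2 kb and met no region of another line. The span of WT held no region of any of the 3 marks.

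A region just past the upper end of the Trp63 span was the only one held by all 3 lines. It ran from 25897801 to 25909000 in female KO with 478 reads, from 25898801 to 25906600 in male KO with 357 reads, and from 25902001 to 25906600 in WT with 80 reads. The lists give only a count per region, and it was spread evenly over the region. Density over the 4.6 kb common to all 3 is therefore the mean density of each line's whole region. It was 42.7 reads per kb in female KO (11.2 kb), against 45.8 in male KO (7.8 kb) and 17.4 in WT (4.6 kb). Scaled to WT by the reads in bins that all 3 lists of the mark hold (shared-bin scaling), these became 23.7, 20.5 and 17.4 reads per kb, or 1.37 and 1.18 times WT in female and male KO. Scaled by the sum of reads in regions, they became 13.8, 16.6 and 17.4, or 0.796 and 0.952 times WT. The direction of mean region density against WT thus turned with the scaling.

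The densest H3K27ac region of the Trp63 window lay at its lower edge. It was chr16:25573801-25593400 in female KO, with 1862 reads over 19.6 kb, or 95 reads per kb, and it began outside the window. That density was above 94.7% of the regions in the female KO list. WT held a region of 3.8 kb inside it, chr16:25582401-25586200, with 96 reads, and male KO held none. Its nearer end lay 86.6 kb below the gene span. The region with the next most reads in female KO, chr16:25939601-25958600, held 791 reads over 19 kb on the upper side, 44.6 kb past the span, and neither male line had a region there. The remaining 3 regions of female KO in the flanks had 118, 128 and 266 reads. In RefSeq on GRCm38.p6 the protein-coding neighbours of Trp63 are Tprg on the lower side and P3h2 on the upper side. No mm9 annotation was used here, so flank regions were not assigned to any of the 3 genes.

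When the 3 H3K27ac lists were merged, the Trp63 window held 11 regions. Of these, 8 were in female KO and not in WT, which is 72.7%. Over the genome, 20% of 26892 merged H3K27ac regions had this pattern. For male KO the count was 2 of 11, or 18.2%, against 26.2% over the genome, so the male KO share lay near or under the background. 1 region, the widest in the span, was in both KO lists and not in WT, a pattern of 9.68% of merged regions. The region held by all 3 lines was 1 of 11, against 44.6% over the genome. No region was in WT and absent from female KO, against 16.4% over the genome, and 1 was in WT and absent from male KO, against 10.7%. WT held only 2 regions in the window, so these counts of losses carry little.

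Where female KO and WT both held a region, read counts were compared after subtracting the median log2 ratio over all such regions, a factor of 3.09 for female KO and 2.69 for male KO. The lower-edge region was 6.29-fold higher in female KO than in WT, above 99.6% of 12677 regions. Such a fold moves with the length called, here 19.6 kb against 3.8 kb. After shared-bin scaling its density was 52.9 reads per kb in female KO, against 25.3 in WT. It was the 1 of 2 shared regions past a fold of 2, a call met by 10% of regions over the genome. The region held by all 3 lines had 1.94 times the WT reads in female KO and 1.66 times in male KO, over called lengths of 11.2, 7.8 and 4.6 kb in female KO, male KO and WT. These ratios are larger than those of mean region density, given above. Neither passed a fold of 2, which 6.93% of regions did in male KO. Summed over the window, reads in regions numbered 4159 in female KO, against 527 in male KO and 176 in WT, with regions cut at the window's edge. After the same scaling, female KO was 7.66-fold above WT (log2 2.94, 2.72 to 3.15 by counting error) and male KO 1.11-fold (log2 0.16, -0.09 to 0.40). Such a sum moves with the length called. The mean density in covered stretches was 41.0, 42.5 and 21.0 reads per kb before any scaling. The shared-bin factors to WT were 0.556 for female KO and 0.448 for male KO, so the KO densities are not alike on that scale. The length covered differed more between them, 101.4 kb in female KO against 12.4 kb in male KO.

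**Figure D3:**
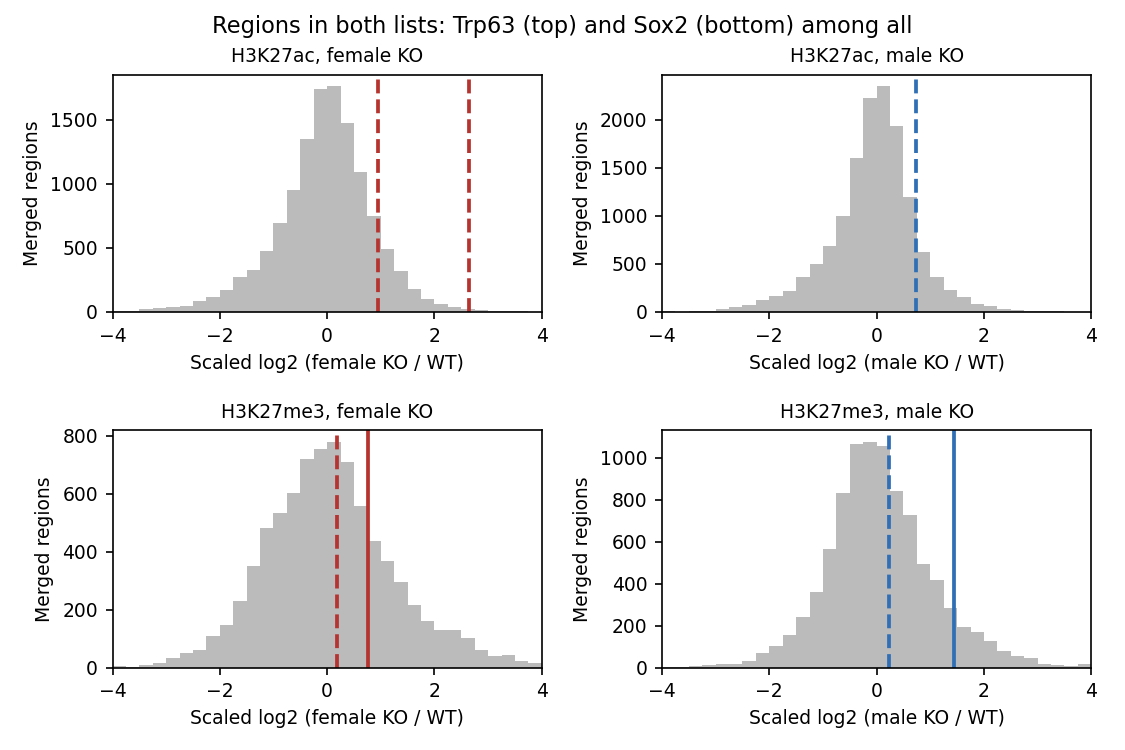
Histograms of the scaled log2 ratio of reads, KO over WT, for all merged regions that both lists hold (horizontal axis log2, vertical axis number of regions), with H3K27ac on top and H3K27me3 below. Vertical lines mark the regions of the Trp63 window (top) and the Sox2 window (bottom), solid where a region meets the gene span and dashed in the flanks. The lower-edge Trp63 region of female KO lies far out in its histogram at 2.65, and the Sox2 span region of male KO lies at 1.44.

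Most H3K27ac regions of the Trp63 window were faint for their lists. In female KO, 9 of 10 lay below the list's median density of 46.2 reads per kb, and the exception was the lower-edge region. In male KO, 3 of 3 were below the median of 55.8, and in WT 2 of 2 were below 29.6. After shared-bin scaling, the 8 female KO regions absent from WT had between 13.2 and 23.2 reads per kb. The densest of them, at 25939601 to 25958600, exceeded 27.2% of WT regions in density. The 7 others exceeded between 0.448% and 7.38% of WT regions, so they sat near the lower end of what the WT list holds. The part of depth in their absence from WT was not tested. Female KO reads in H3K27ac regions numbered 12295125 over the genome, male KO 11023981 and WT 3989395. Of these 8 regions, male KO held 1. Over the genome, male KO held 2603 of the 5375 merged H3K27ac regions in female KO and not in WT.

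**Figure D4:**
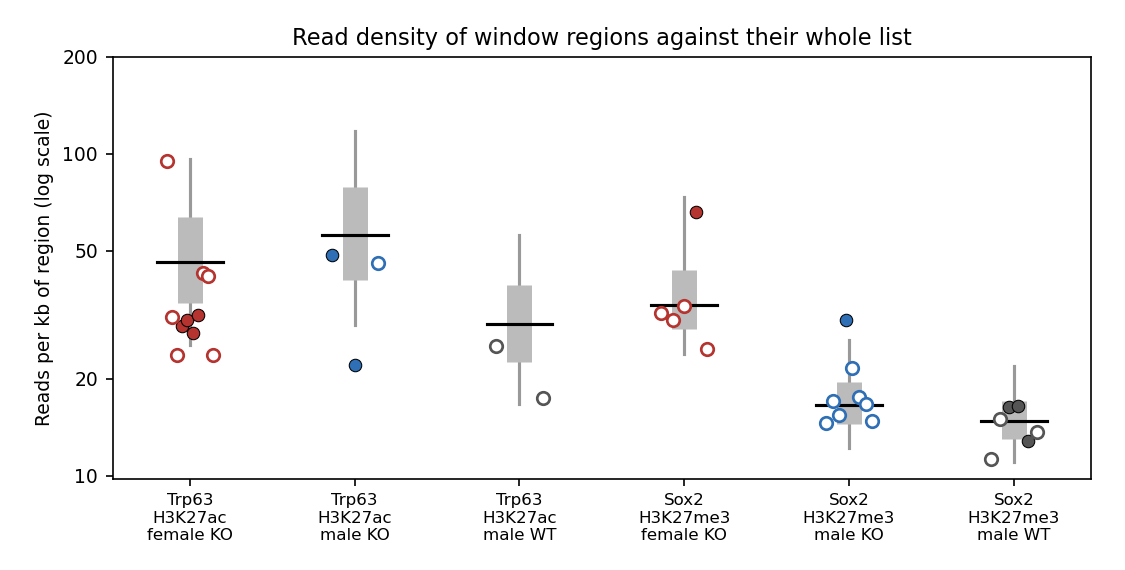
Reads per kb of every region in the windows (log axis) for H3K27ac at Trp63 and H3K27me3 at Sox2, by line. Filled points meet the gene span and open points lie in the flanks. The grey box, thin line and black bar give the middle 50%, the 5th to 95th percentiles and the median of all regions in the list. Female KO points at Trp63 lie under the median of 46.2 except the 1 at 95, and the Sox2 span regions of both KO lines, at 65.8 and 30.5, lie above their medians.

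Large clusters of H3K27ac were looked for by joining regions at the distance commonly used to call super-enhancers and ranking the resulting domains by reads. In female KO the lower-edge region and the next 2 formed a domain of 48 kb with 2246 reads, rank 1231 of 12539. The domains inside the Trp63 span ranked lower, the highest of them 5400. The highest domain of the window ranked 7279 of 16273 in male KO and 8939 of 13467 in WT. The 48 kb domain of female KO was thus within the top 9.82% of its line, and those of the other lines were lower in their rankings.

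The nearest H3K4me3 region to the Trp63 span lay on the upper side in all 3 lines, 208.4 kb away in female KO with 424 reads, 208.8 kb in male KO with 303 and 209.2 kb in WT with 389. The nearest H3K27me3 region was 1325.6 kb away in female KO, 444.4 kb in male KO and 1248 kb in WT. Of the tiles of this length, 22.7% had neither mark in any line, and 1.81% (105 of 5787) had neither mark in any line but H3K27ac in all 3, as at Trp63. That combination was chosen after its values were seen.

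**Figure D5:**
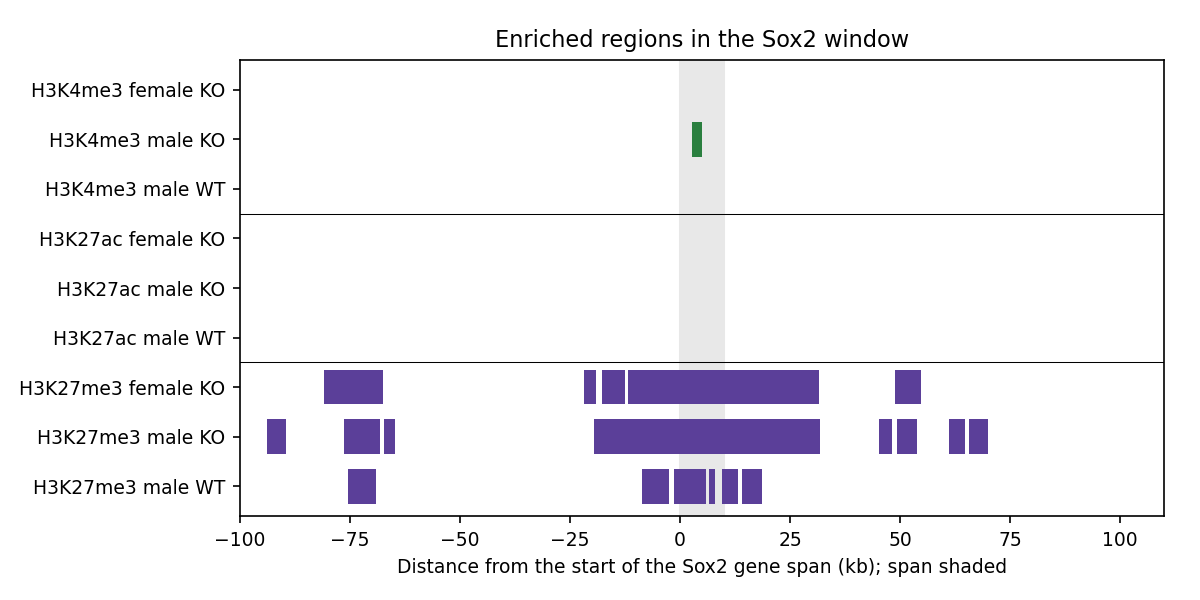
Map of the Sox2 window, drawn as for Trp63, with distance in kb from the start of the shaded gene span. H3K27me3 bars cross the span in all 3 lines. In the KO lines they join into regions of 43.4 and 51.4 kb, in WT they are shorter and split, and the only other bar is the H3K4me3 region of male KO.

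H3K27me3 covered 70.8 kb of the Sox2 window in female KO, 81.6 kb in male KO and 29 kb in WT. The shares were 33.7% (30.9 to 36.6%), 38.9% (36.0 to 41.8%) and 13.8% (11.9 to 16%). Each was above the autosomal share of its list, which was 13.7% in the first, 9.87% in the second and 6.01% in the third. Of 11443 autosomal tiles of this length, 83.3%, 90.8% and 85.4% had less cover. The order was male KO, female KO, WT. Over all autosomes female KO had more H3K27me3 cover than male KO, and 4.34% of tiles showed the order seen at Sox2. That order was read from Sox2 itself. The tiles include 44.8% with no H3K27me3 region in any line, which cannot show it. Female KO exceeded WT by 19.9 percentage points (16.3 to 23.4) and male KO by 25 (21.4 to 28.6).

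The Sox2 span itself was covered over its full 10 kb in both KO lines and over 7.6 kb in WT. In female KO 1 region crossed it, chr3:34533201-34576600, with 2856 reads over 43.4 kb. In male KO the region was chr3:34525401-34576800, with 1566 reads over 51.4 kb. This was the 321st widest of 28263 regions in the male KO list, and its density of 30.5 reads per kb was above 98.0% of them. The female KO region, at 65.8 reads per kb, was above 92.6% of its list. In WT the span met 3 regions, chr3:34543601-34550800 with 118 reads, chr3:34551601-34553000 with 23 and chr3:34554601-34558200 with 46. The widest of these measured 7.2 kb and its density of 16.4 reads per kb was above 68.3% of WT regions. The mark was therefore listed at Sox2 in all 3 lines, and the listed stretch was longer and less broken in the KO lines. Wider H3K27me3 regions were also a trait of the whole KO lists. Median width was 8.4 kb in female KO, 5.2 kb in male KO and 3.8 kb in WT. The female KO region over Sox2 was the 1562nd widest of 21352 in its list.

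Every stretch of WT H3K27me3 in the Sox2 window, 29 kb, was also covered in both KO lists. It made up 41.0% of the female KO length and 35.5% of the male KO length. The KO lists shared 61.8 kb, which is 87.3% of the female KO and 75.7% of the male KO length. Over the genome the lists covered 345 Mb in female KO, 238 Mb in male KO and 145 Mb in WT. Their overlap over the genome is not given here, so these shares are not shown to be particular to Sox2. Over the 29 kb held by all 3 lines, density from evenly spread region counts was 58.6 reads per kb in female KO, against 27.6 in male KO and 14.1 in WT. The KO values are averages of regions that reach past this stretch, not reads measured in it. After shared-bin scaling the values were 15.4, 21.0 and 14.1, or 1.09 and 1.49 times WT in female and male KO. Scaled by the sum of reads in regions they were 7.59, 13.7 and 14.1, or 0.537 and 0.972 times WT. Male KO was above female KO under both scalings, while the direction of each KO line against WT turned between them.

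In the flanks of Sox2, all 3 lines held H3K27me3 at about the same place on the lower side. The regions were chr3:34464201-34477600 in female KO with 430 reads, chr3:34468601-34476800 in male KO with 140, and chr3:34469601-34475800 in WT with 70. On the upper side, female KO held chr3:34593801-34599800 with 148 reads and male KO held chr3:34594401-34598800 with 77, where WT held none. Female KO also held chr3:34527201-34532400 with 175 reads and a region of 85 reads, both overlapping the long male KO region. The other 5 flank regions of male KO, with 37 to 65 reads, met no region of female KO or WT. Over the genome, 20.9% of merged H3K27me3 regions were in male KO alone. The other 2 flank regions of WT, chr3:34536401-34542600 with 93 reads and chr3:34559201-34563600 with 60, lay inside the long regions of both KO lines.

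Merging the 3 H3K27me3 lists gave 8 regions in the Sox2 window. In male KO and not WT were 6 of 8, or 75%, against 30.6% of 32728 merged regions over the genome. In female KO and not WT was 1 of 8, against 35.4%. None was in WT and absent from a KO line, a pattern of 18.6% of regions for female KO and 15.9% for male KO. The 2 others were in all 3 lines, a pattern of 21.6% of regions over the genome. They were the only merged regions that WT held, so the absence of losses carries little. The one over the gene, from 34523201 to 34576800, had 2.71 times the WT reads in male KO after median scaling, above 91.1% of 9111 regions. In female KO it had 1.69 times, above 75% of 8209 regions. These ratios move with the length called, 51.4 kb in each KO line against 22.8 kb in WT. Its mean density after shared-bin scaling was 15.9 reads per kb in female KO, against 23.2 in male KO and 14.9 in WT. The lower-flank region had 1.18 times the WT reads in male KO and 1.13 times in female KO. A fold of 2 was thus passed by 1 of 2 regions in male KO, against 15.8% over the genome, and by 0 of 2 in female KO, against 19.7%.

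Reads in H3K27me3 regions of the Sox2 window summed to 3694 in female KO, against 2071 in male KO and 410 in WT. After scaling by the median over shared regions, 5.43 for female KO and 1.70 for male KO, female KO was 1.66-fold above WT (log2 0.73, 0.58 to 0.88) and male KO 2.97-fold (log2 1.57, 1.42 to 1.72). These sums, too, move with the length called, 70.8, 81.6 and 29 kb. The density ratios given above for the 29 kb common to all 3 lines were smaller. They do not correct for the called length, because KO counts were spread evenly over longer regions. Density over the covered length was 52.2, 25.4 and 14.1 reads per kb. Reads in H3K27me3 regions over the genome numbered 18507923, 4811961 and 2396174, so the female KO list held the most reads. After shared-bin scaling, 4 of the 5 female KO regions, all but the 1 over the gene, had 6.46 to 8.82 reads per kb and exceeded at most 0.0989% of WT regions in density. The male KO regions had 11 to 23.2 reads per kb on that scale and exceeded 5.16% to 96.8% of WT regions.

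The H3K4me3 region of male KO at Sox2, chr3:34547801-34550000, held 83 reads over 2.2 kb, 37.7 reads per kb. It was among the weaker regions of its list, above 19.4% of regions in density and 21.0% in reads. H3K27me3 of the same line covered all 2.2 kb of it, and no H3K27ac region met it. H3K27me3 of female KO and of WT also covered all 2.2 kb, but neither of those lines had an H3K4me3 region there. Of all H3K4me3 regions in male KO, 12% overlapped H3K27me3 without H3K27ac. A merged H3K4me3 region in male KO and not in WT was found for 13.6% of 18606 regions over the genome. Reads in H3K4me3 regions numbered 7432359 in male KO, 16144388 in female KO and 12828427 in WT. The male KO list nevertheless held the most H3K4me3 regions, 16908 against 14056 in female KO and 15975 in WT. Its lowest count per region was 10 reads, against 15 in female KO and 13 in WT. The part of depth or calling was not tested. Apart from it, the nearest H3K4me3 region to the Sox2 span was 563 kb away in female KO, 563.2 kb in male KO and 563.4 kb in WT.

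H3K27ac was not listed within 100 kb of the Sox2 span in any line. The nearest region was 131.6 kb away in female KO, 187 kb in male KO and 624.6 kb in WT. Of tiles of this length, 4.65% (532 of 11443) had no H3K27ac in any line and H3K27me3 in all 3, as at Sox2, a combination that was also chosen after its values were seen. RefSeq on GRCm38.p6 places Sox2 within Sox2ot, a long non-coding RNA gene, so regions here cannot be given to Sox2 alone.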

How the data were processed

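Chromatin immunoprecipitation sequencing of H3K4me3, H3K27ac and H3K27me3 was done in 3 lines, 1 library each. Per the submitters' processing notes, Bowtie 1.1.2, SICER 1 and mm9 were used. The sources used here do not state parameters, control library or library totals. Each deposited list gives chromosome, start, end and a whole number, read as the authors' count of reads per region. With no header, that reading rests on the layout that SICER writes.

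Analyses used Python 3.11.15, numpy 2.4.6, pandas 2.3.3 and scipy 1.17.1, with figures in matplotlib 3.10.9. Starts were made 1-based. Region counts were spread evenly over their length and cut at window borders. Lists of a mark were merged where regions overlapped by at least 1 bp. Covered lengths were checked with bedtools 2.31.1, and 0 of 18 differed. Tiles run between the first and last region of each autosome. Shared-bin scaling used reads in the 200 bp bins common to a mark's 3 lists. Scripts were tested on simulated data. All regions in gene spans and the 3 flank regions with most reads per library were named. The members, lists and rules were chosen with earlier results of these data known. The gene table belongs to GRCm38.p6 and gave only names and neighbours, so the squamous genes listed for a comparison were not placed. Alternatives covered depth, the median count, flanks, overlap, stitching and scaling.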

Additional observations from a re-analysis of the deposited data

How the results depend on the processing

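Of 92 recomputed values of covered share, window reads, region counts and domain ranks, 35 belong to 7 differences with no region in either line, where each setting gives 0 by construction. Of the other 57, 39 stayed within their counting interval or within 1.5 times and 18 moved. The 5 of these 57 from lists depth-scaled by count say little, since that filter dropped almost no region. A filter by scaled density also dropped few regions, except from H3K27me3 in female KO, which fell from 21352 to 15244. Its values for the other lists, also among the 57, say little too. Differences in covered share are KO minus WT in percentage points. When each list kept the upper part from its median count, the difference at Trp63 for H3K27ac in female KO was 14.5, the differences at Sox2 for H3K27me3 were 15.6 in female KO and 17.0 in male KO, and that for H3K4me3 in male KO at Sox2 was 0, since the only region falls away. In the gene span without flanks, the H3K27ac differences at Trp63 were 17.4 in female KO and 2.14 in male KO, and at Sox2 they were 24 for H3K27me3 in female KO and 22 for H3K4me3 in male KO. With flanks of 50 kb they were 15.7 and 2.48 at Trp63, 31.5 and 32.7 for H3K27me3 at Sox2 in female and male KO, and 2 for H3K4me3 in male KO. The window and the denominator differ by construction there. Scaling by the sum of reads in regions gave log2 ratios of window reads of 0.22 for female KO and 1.33 for male KO for H3K27me3 at Sox2. It turned the log2 ratio of density in stretches common to all 3 lists to -0.33 and -0.070 for H3K27ac at Trp63, in female and male KO. For H3K27me3 at Sox2 the ratio turned to -0.90 and -0.041. These densities come from counts spread evenly over each region, so they are not reads measured in the common stretches. This comparison and setting were added after the values were seen. The cause was not tested. When a list had to cover 50% of a merged region, 0 H3K27ac regions at Trp63 counted as in WT and not male KO, and 3 H3K27me3 regions at Sox2 as in female KO and not WT. With lists scaled by density to the library of lowest depth, an alternative chosen after the values were seen, the latter number was 0. No paired analysis was possible because each mark and line has 1 library. Library totals are not in the lists, so what depth limits was not measured, and a region missing from a list does not show that the mark was absent.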
